A study of Homo sapiens with 16 samples.

Results

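L2 and MIR are the oldest abundant repeats of the human genome. L2 is a long interspersed element that no longer copies itself, and MIR is a short interspersed element derived from a tRNA that was once mobilised by the L2 machinery. Their copies have drifted far from each other in sequence, and many lie in introns and between genes, where open chromatin can carry acetylated histone H3 lysine 27 (H3K27ac), a mark of active enhancers and promoters. The regions described here are the open chromatin regions of THP-1 cells whose genomic annotation names an L2 or a MIR copy. They numbered 8376 of the 151654 regions measured, with 4591 in L2 and 3785 in MIR.

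THP-1 is an established human monocytic leukaemia line. WT cells carried Cas9 alone, and USP18KO cells were a clone grown from a single cell after CRISPR editing of USP18, so that the genotype and the clone cannot be told apart. USP18 is induced by interferon and dampens signalling from the type I interferon receptor. Both genotypes were left untreated or received 1000 U/ml IFN-α for 6 h. H3K27ac ChIP-seq was read in 2 libraries for each of the 4 groups, and both libraries of a group are labelled as biological replicates without saying whether they came from separate cultures, so p-values measure the spread between these libraries only. The 8 input libraries were not analysed here.

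Each region was a window of 1000 bp around the centre of an ATAC-seq peak, in hg38 coordinates. Libraries held 24712400 to 30501100 tags, of which 9046140 to 12935500 fell in the windows. That was 36.1% to 37.3% of the tags in WT and 38.4% to 42.5% in USP18KO libraries. Levels are given in CPM, counts brought to a common total of the tags in windows kept for testing. These totals were scaled by the trimmed mean of M values (TMM). Replicates correlated with Pearson's r between 0.951 and 0.958 over the L2 and MIR regions on the log2 scale, a value across regions, which are not independent replicates. Their median absolute difference was 0.254 to 0.274 on that scale. The window at the start of USP18 itself held 7.88 and 7.64 CPM in untreated WT cells, 18.1 and 15.0 with IFN-α, 8.23 and 8.51 in untreated USP18KO cells and 49.3 and 41.7 with IFN-α. A mark at the promoter does not test the edit in the coding sequence. Of 9 monocytic marker genes, 7 had a window within 1000 bp of their start, FCGR1A and MPO had none, and the 7 summed to 136 to 148 CPM in WT and 194 to 204 CPM in USP18KO cells. Of 9 genes listed as markers of other lineages, only COL1A1 and PECAM1 had such a window. COL1A1 was low, at 1.99 to 5.26 CPM. PECAM1 held 78.4 to 84.4 CPM in WT and 55.8 to 94.4 CPM in USP18KO libraries, in WT more than any single monocytic marker. It therefore did not serve as a low marker here, and its level does not tell which cells carried the mark. In bulk chromatin, fewer cells with a mark and less mark per cell cannot be told apart.

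The L2 regions came from L2a (1662), L2c (1153), L2b (941), the L2 copies without a letter (797), L2-3_Crp (29) and L2-1_AMi (9). The MIR regions came from MIRb (1410), MIR (1012), MIR3 (657), MIRc (628) and MIR1_Amn (78). By GENCODE release 44, the centre lay in an intron for 3075 L2 and 2518 MIR regions, between genes for 1437 and 1157, and in an exon for 79 and 110. Both classes were far from promoters. More than 3000 bp from the nearest transcription start lay 95.2% of L2 and 92.6% of MIR regions, against 79.3% of all regions, and the median distance was 29452 bp for L2, 26862 bp for MIR and 20667 bp for all regions. The share of G and C bases in the middle 201 bases had a median of 46.3% in L2, 45.3% in MIR and 49.3% in all regions. Windows that shared bases with another window made up 23.8% of L2, 27.3% of MIR and 31.8% of all regions. Among regions named in the text they included those near OTOF, CLMP, XYLT1, ST3GAL4, SPATA6, PURG and CD274.

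MIR copies keep a conserved central core, and that core held the most frequent of the words of 10 bases enriched in MIR regions. Words were ranked only if their class share reached a minimum and exceeded, by a fixed factor, that in introns and between genes outside repeats. The contrasts with regions outside repeats therefore follow from this choice. AGATGAGGAA ranked first in MIR, in 7.42% of MIR regions, against 0.806% of L2 regions and 0.387% of those regions outside repeats. In L2, GAGGAAGTGA led with 5.05% of regions, against 2.01% of MIR regions and 1.58% outside repeats. That word holds GAGGAAGT, the site of the myeloid factor PU.1, which was in 14.5% of L2 regions and 8.45% of MIR regions, against 6.42% of all regions. The MIR word opens a stretch that comes close to the interferon-stimulated response element, the sequence bound by interferon-activated factors, whose core is read here as GAAANNGAAA on either strand, N being any base. The core, taken as 50 positions with the most frequent base at each among MIR regions that held this word, was found in the middle 201 bases of 1160 of 3785 MIR regions (30.6%) and of 8 of 4591 L2 regions. A region was taken to hold it when at least 29 of 48 scored positions matched, a minimum set after the sequences had been seen, with the last 2 bases of the element left unscored so that they did not decide the match.

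Single regions show the bases around the element. The stretches shown next, of 60 bases of hg38 with the element in capitals, belong to the regions whose H3K27ac rose most with IFN-α and which held the element. They are named by the nearest gene of the annotation. Here and in what follows, a named copy stands for the whole 1000 bp region annotated to it. Repeat boundaries were not used, so whether the element lay inside the repeat was not checked. In the MIR copies near THRA and NNT-AS1 the bases around it reached the minimum for the core, and in the other MIR and L2 copies they did not.
THRA, MIR, chr17:40078060-40078119, minus strand: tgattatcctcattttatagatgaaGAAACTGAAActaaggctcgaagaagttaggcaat
NNT-AS1, MIRb, chr5:43934965-43935024, minus strand: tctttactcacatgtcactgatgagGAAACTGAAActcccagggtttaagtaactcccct
CLMP, MIRb, chr11:123233488-123233547, plus strand: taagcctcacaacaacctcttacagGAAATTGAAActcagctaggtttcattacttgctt
LINC02513, MIRc, chr4:38283906-38283965, plus strand: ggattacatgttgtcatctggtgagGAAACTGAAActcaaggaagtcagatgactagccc
NOS2, MIR1_Amn, chr17:27810437-27810496, plus strand: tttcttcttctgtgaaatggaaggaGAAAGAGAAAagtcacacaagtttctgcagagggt
NUP205, L2c, chr7:135575443-135575502, plus strand: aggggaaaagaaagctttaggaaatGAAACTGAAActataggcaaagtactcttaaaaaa
KIAA0319L, L2, chr1:35488495-35488554, plus strand: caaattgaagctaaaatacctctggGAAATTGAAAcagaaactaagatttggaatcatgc
LOC105370829, L2c, chr15:55026588-55026647, plus strand: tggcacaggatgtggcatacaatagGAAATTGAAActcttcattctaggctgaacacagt
NME9, L2, chr3:138271295-138271354, minus strand: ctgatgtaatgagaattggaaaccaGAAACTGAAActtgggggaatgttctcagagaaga

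No complete element was in the middle 201 bases of the regions near OTOF and LINC01740, which also rose. A match is a run of letters in the reference genome and not a measured binding site.

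IFN-α in WT cells raised H3K27ac by more than 2-fold at few L2 and MIR regions, and no fall of more than 2-fold was called. For each comparison a region was called when edgeR's quasi-likelihood test gave a change of more than 2-fold and a Benjamini-Hochberg adjusted p under 0.05, over the 123276 regions with at least 10 tags in at least 2 libraries. The tested regions included 3798 L2 regions (82.7%) and 3118 MIR regions (82.4%), and the 793 L2 and 667 MIR regions under the minimum had no test. In WT cells, 16 L2 regions (0.421% of those tested) and 16 MIR regions (0.513%) rose, against 0.343% of all regions tested. None of either class was called lower, against 0.0389% of all regions. Falls of less than 2-fold passed the adjusted p under 0.05 at 8 L2 and 2 MIR regions. At an unadjusted p under 0.05, 191 L2 and 128 MIR regions were lower. DESeq2 called 12 L2 and 13 MIR regions higher and 0 of either lower.

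In USP18KO cells the same treatment moved far more of them. IFN-α raised 312 L2 regions (8.21%) and 310 MIR regions (9.94%), against 7.12% of all regions tested and 7.89% of all regions more than 3000 bp from a start. It lowered 159 L2 regions (4.19%) and 158 MIR regions (5.07%), against 4.41% of all regions tested and 5.05% of the distal ones. The L2 shares were thus close to the background of distal regions, and the MIR share of raised regions lay above it, a difference given without a test. It was not particular to MIR. Among other repeats, 12.6% of L1, 8.57% of DNA transposon, 7.17% of LTR and 6.78% of Alu regions were raised. With counts scaled by their plain sum, 265 L2 regions were higher and 261 lower, and 267 MIR regions were higher and 244 lower, since that scaling shifted the median of all regions by -0.13 on the log2 scale. The rises were also larger than the falls. Among called regions the median log2 change was 1.69 for rising L2 and 1.78 for rising MIR regions, and -1.25 and -1.30 for falling ones. More than 8-fold rises were seen at 53 L2 and 56 MIR regions and more than 8-fold falls at none. Sizes were not summarised for all regions, so they cannot be read as particular to these repeats. The median level over the libraries was 1.32 CPM in L2 and 1.34 CPM in MIR regions. The part of low levels in the size of falls was not tested.

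**Figure D1:**
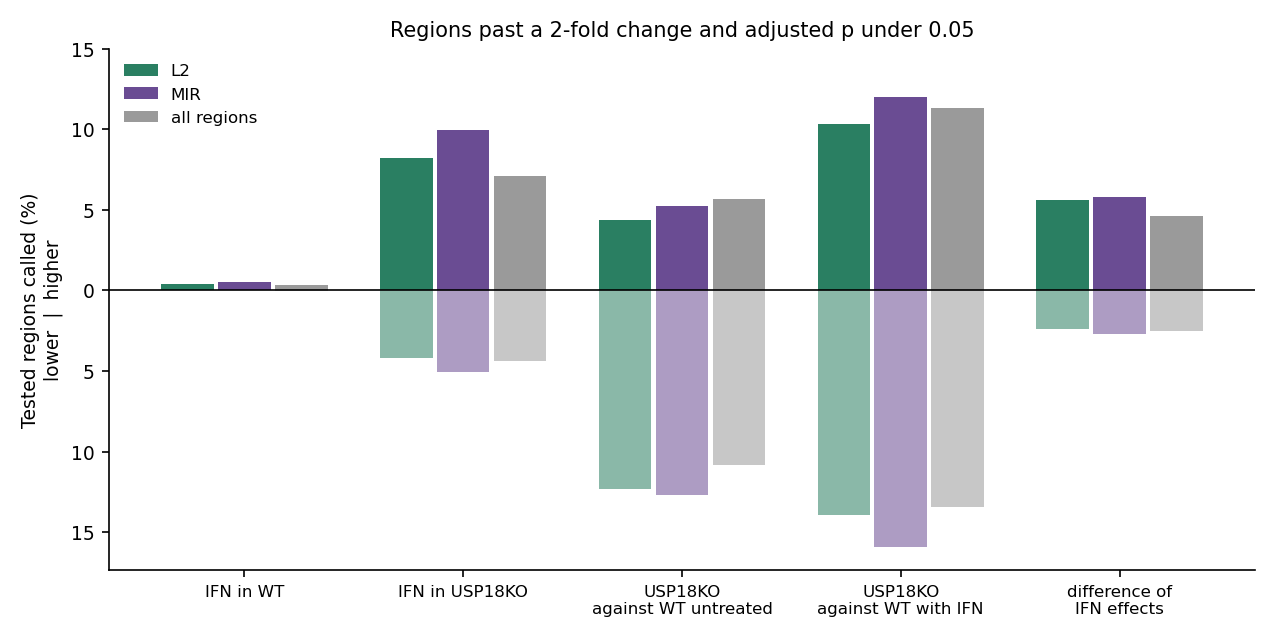
Percent of tested L2, MIR and all regions called in each of the 5 comparisons, with regions called higher above the line and regions called lower under it. IFN-α raised 0.421% of L2 and 0.513% of MIR regions in WT cells and 8.21% and 9.94% in USP18KO cells.

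The subfamilies followed their classes with some spread. In USP18KO cells IFN-α raised 8 of 63 tested MIR1_Amn regions (12.7%), 11.2% of MIRc, 10.5% of MIRb, 10.1% of MIR3 and 8.06% of MIR regions. Among L2 copies it raised 3 of 24 L2-3_Crp regions, 1 of 8 L2-1_AMi regions, 10.3% of those without a letter, 8.16% of L2b, 7.73% of L2a and 7.31% of L2c regions. No subfamily difference was tested.

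All 32 regions raised in WT cells also rose in USP18KO cells, 5.13% of the L2 and 5.16% of the MIR regions raised there. Their median log2 change went from 1.47 in WT to 3.80 in USP18KO cells for the 16 L2 regions and from 1.65 to 3.85 for the 16 MIR regions. They were chosen by the WT comparison, so their WT medians carry that choice. Neither this overlap nor the next count was worked out for all 423 regions raised in WT cells. Neither can therefore be read as particular to L2 or MIR. The difference between the genotypes' IFN-α effects was itself called for 31 of the 32, the exception being a MIR region near AXL. Over both classes, that difference was called in the direction of a larger effect in USP18KO cells at 212 L2 (5.58%) and 181 MIR regions (5.81%), against 4.61% of all regions. It was called in the opposite direction at 92 L2 (2.42%) and 84 MIR regions (2.69%), against 2.55% of all regions. Scaled by plain sums, these counts were 178 and 143 for L2 and 156 and 144 for MIR.

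The L2b copy in an intron of OTOF (chr2:26492453-26493453) was the L2 region with the largest rise in WT cells. It held 5.18 and 6.55 CPM in untreated WT cells and 34.0 and 37.1 CPM with IFN-α. In USP18KO cells it went from 4.73 and 5.80 to 97.5 and 94.9 CPM. Untreated libraries of both genotypes overlapped, and the treated USP18KO libraries were the highest. The log2 change was 2.59 ± 0.15 (SE, n = 2 libraries per group, edgeR adjusted p = 1.22e-24) in WT and 4.20 ± 0.14 (edgeR adjusted p = 1.6e-41) in USP18KO cells. OTOF encodes a calcium sensor of vesicle fusion best known from inner ear hair cells.

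The L2c copy in an intron of NUP205, a gene for a scaffold protein of the nuclear pore, was at a low level before treatment. It held 0.518 and 1.27 CPM in untreated WT, 4.97 and 4.53 CPM in treated WT, 0.700 and 1.16 CPM in untreated USP18KO and 70.3 and 62 CPM in treated USP18KO cells. All 4 treated libraries lay above all 4 untreated ones. The log2 change was 2.35 ± 0.33 in WT and 6.15 ± 0.21 in USP18KO cells, with edgeR adjusted p values of 2.16e-07 and 1.57e-40.

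The L2 copy in an intron of KIAA0319L went from 0.830 and 1.27 to 3.38 and 4.74 CPM in WT and from 0.875 and 0.580 to 35.4 and 29.9 CPM in USP18KO cells. The L2c copy upstream of LOC105370829 went from 2.80 and 1.64 to 6.56 and 6.59 CPM in WT and from 0.175 and 1.16 to 52.1 and 46.2 CPM in USP18KO cells. In both regions the treated libraries of each genotype lay above every untreated library. The L2 copy nearest to NME9, in an intron of ARMC8, held 0.622 and 0.364 CPM in untreated WT and 2.19 and 1.24 CPM in treated WT cells, where its edgeR adjusted p was 0.052. It rose from 0.263 and 0.870 to 42.9 and 41.5 CPM in USP18KO cells. Its log2 change there was 6.23 ± 0.25, beside 6.23 ± 0.24 near LOC105370829 and 5.45 ± 0.25 in KIAA0319L.

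Among MIR regions the largest rise in WT cells was at a MIRb copy between genes, near LINC01740. It held 1.87 and 2.18 CPM in untreated and 22.8 and 18.0 CPM in treated WT cells, and 3.76 and 2.90 CPM in untreated and 68.0 and 66.2 CPM in treated USP18KO cells. The rise was steep in both genotypes, with log2 changes of 3.32 ± 0.20 and 4.32 ± 0.16 (edgeR adjusted p = 7.36e-23 and 3.07e-38). A MIRb copy near CLMP, which encodes a cell adhesion molecule, went from 2.49 and 2.73 to 10.3 and 11.0 CPM in WT and from 1.40 and 1.35 to 45.6 and 44.7 CPM in USP18KO cells. The MIR copy in an intron of THRA, the gene of a thyroid hormone receptor, went from 1.24 and 1.27 to 3.97 and 4.74 CPM in WT and from 2.28 and 1.45 to 27.5 and 23.1 CPM in USP18KO cells. At both, treated libraries lay above untreated ones in each genotype.

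The MIR regions with the largest rises in USP18KO cells started there from very low levels. The MIRc copy near LINC02513 had 1 tag in each untreated USP18KO library, 0.0875 and 0.0967 CPM, and 20.0 and 16 CPM after treatment. With 2 tags against 395, the ratio was 196, with an exact 95% interval for counting error only of 54.0 to 1628. WT libraries held 1.14 and 0.182 CPM untreated and 1.39 and 1.24 CPM treated, and no WT change was called. The MIR1_Amn copy upstream of NOS2, the gene of inducible nitric oxide synthase, went from 1.24 and 2.00 to 6.16 and 4.12 CPM in WT and from 0.613 and 0.193 to 30.4 and 25.7 CPM in USP18KO cells. The MIRb copy far upstream of NNT-AS1 went from 2.18 and 1.27 to 5.56 and 5.66 CPM in WT and from 0.525 and 0.580 to 31.1 and 27.9 CPM in USP18KO cells. Untreated USP18KO libraries were the lowest of the 8 at all of these copies.

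**Figure D2:**
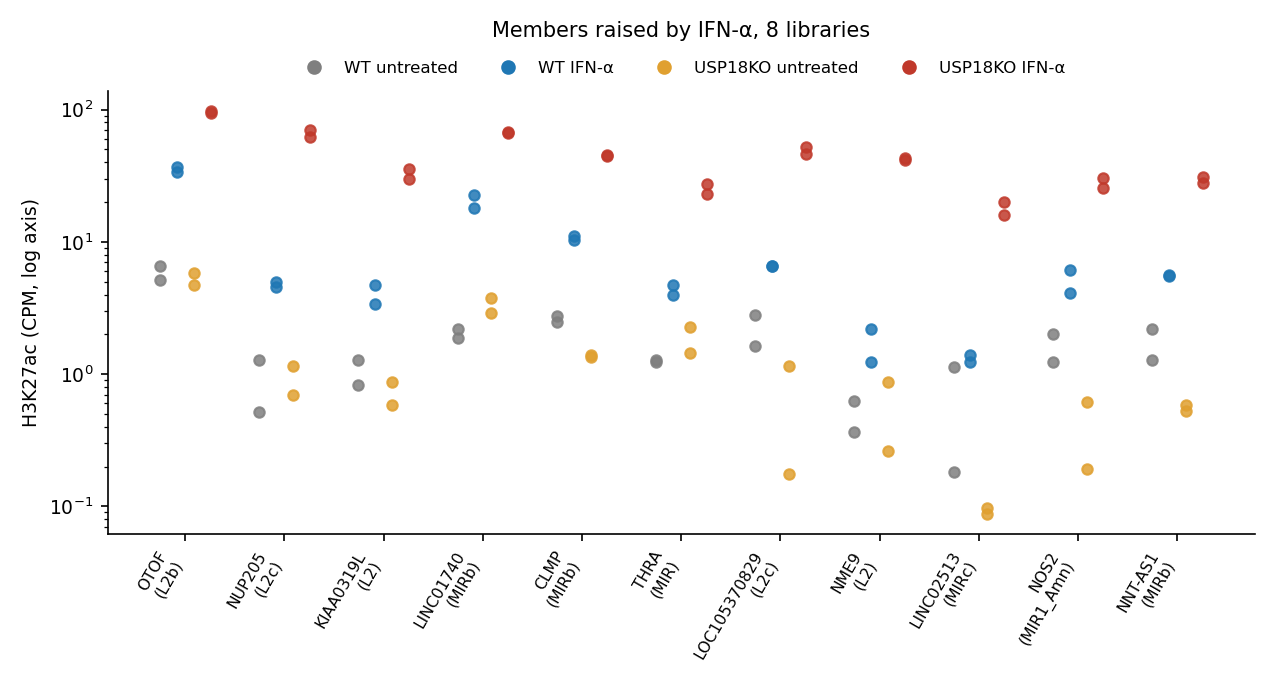
H3K27ac in CPM on a log axis at 11 L2 and MIR regions raised by IFN-α, with 1 point per library in the 4 groups. The treated USP18KO libraries lie above the 6 other libraries at every region, from 16 to 97.5 CPM.

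The largest falls with IFN-α in USP18KO cells, among regions with a mean of at least 30 counts in the higher group, came from higher levels. The L2a copy in an intron of XYLT1, a xylosyltransferase gene, held 37.7 and 37.1 CPM in untreated WT, 31.2 and 38.9 CPM in treated WT, 23.1 and 25.5 CPM in untreated USP18KO and 6.23 and 5.54 CPM in treated USP18KO cells. The treated USP18KO libraries were the lowest of the 8, with a log2 change of -2.04 ± 0.16 (edgeR adjusted p = 2.04e-19). The L2a copy nearest to GPR26, in an intron of LINC02641, held 23, 18.4, 15.9 and 16.9 CPM in the WT libraries, 12.6 and 13.3 CPM in untreated USP18KO and 3.92 and 3.01 CPM in treated USP18KO cells. The L2a copy in an intron of ST3GAL4, a sialyltransferase gene, was already low in the clone, at 67.0 and 63.3 CPM in untreated WT, 47.4 and 45.3 CPM in treated WT, 8.23 and 9.19 CPM in untreated USP18KO and 2.67 and 2.25 CPM in treated USP18KO cells. That copy was the only named region with a fall in WT cells under an adjusted p of 0.05, by 0.49 on the log2 scale (edgeR adjusted p = 0.00332), less than 2-fold.

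At the 3 MIR regions with the largest falls, the treated clone was again the lowest. The MIR copy nearest to MIRLET7I, in an intron of PPM1H, held 20.5, 19.5, 16.1 and 13.8 CPM in the WT libraries, 5.08 and 5.80 CPM in untreated USP18KO and 0.979 and 0.845 CPM in treated USP18KO cells. The MIRb copy near LOC101927190, in an intron of COMMD10, held between 5.96 and 8.55 CPM in the 6 other libraries and 1.42 and 1.22 CPM in treated USP18KO cells. The MIRb copy near MIR4432HG held between 8.85 and 13.7 CPM in the 6 other libraries and 2.05 and 2.25 CPM in treated USP18KO cells. Their log2 changes were -2.55 ± 0.31, -2.30 ± 0.29 and -2.08 ± 0.24, and no WT change was called at any of them.

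Regions that rose with IFN-α in USP18KO cells held the sequence element more often than others, though most of them lacked it. GAAANNGAAA was in the middle 201 bases of 6.32% of L2 and 8.59% of MIR regions, against 5.46% of all regions. Of the tested L2 regions with it, 97 of 248 (39.1%) rose with IFN-α in USP18KO cells, against 6.06% of those without it. Of the tested MIR regions with it, 133 of 276 (48.2%) rose, against 6.23% of those without it. Over all tested regions the shares were 36.8% (2560 of 6951) and 5.35%. Thus the element went with rises in both classes as it did over all regions, and the higher share in MIR is given without a test.

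Read from the other side, 31.1% of raised L2 regions and 42.9% of raised MIR regions held the element, against 29.2% of all raised regions. In other repeats, the raised regions held it in 41.55% of L1, 37.05% of DNA transposon, 27.16% of LTR and 17.89% of Alu regions. None of the 159 lowered L2 regions and 7 of the 158 lowered MIR regions (4.43%) held it, against 1.66% of all lowered regions. It was in 11 of the 16 L2 and 14 of the 16 MIR regions raised in WT cells, against 45.1% of all regions raised there. In raised regions it also lay nearer to the centre of the peak, at a median distance of 29 bp in L2 and 26 bp in MIR, than in regions that were not raised (37 and 40 bp).

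Within the MIR core the response followed the last bases of the element. Of 84 core copies with GAAA at both places, 73 were tested, and 48 of them (65.8%) rose with IFN-α in USP18KO cells, 8 rose in WT cells and none fell in either. Their median log2 change was 1.66 in USP18KO and 0.40 in WT cells. Copies in which the second GAAA read GAAG rose in 7 of 68 (10.3%), those that read GAGG in 3 of 55 (5.46%), those that read AAGG in 2 of 29 and those that read GAGA in 6 of 31 (19.4%). With the first GAAA in place and any other second form, 38 of 378 (10.1%) rose, and with the first GAAA changed 34 of 515 (6.60%) rose. MIR regions where no core was found rose in 190 of 2152 (8.83%). These groups were formed after the sequences and the responses had been seen, so the shares are a description.

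Of 325 MIR regions with GAAANNGAAA, 84 (25.8%) had it within a core that reached the minimum of 29 positions, including 48 of the 133 raised ones (36.1%) and 36 of the 192 others (18.8%). Copies just under that minimum count among the others, so this share depends on it. The 203 tested MIR regions with the element but no such core around it had a median log2 change of 0.90 in USP18KO cells and 41.9% of them rose, close to the 0.89 and 39.1% of L2 regions with it.

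**Figure D3:**
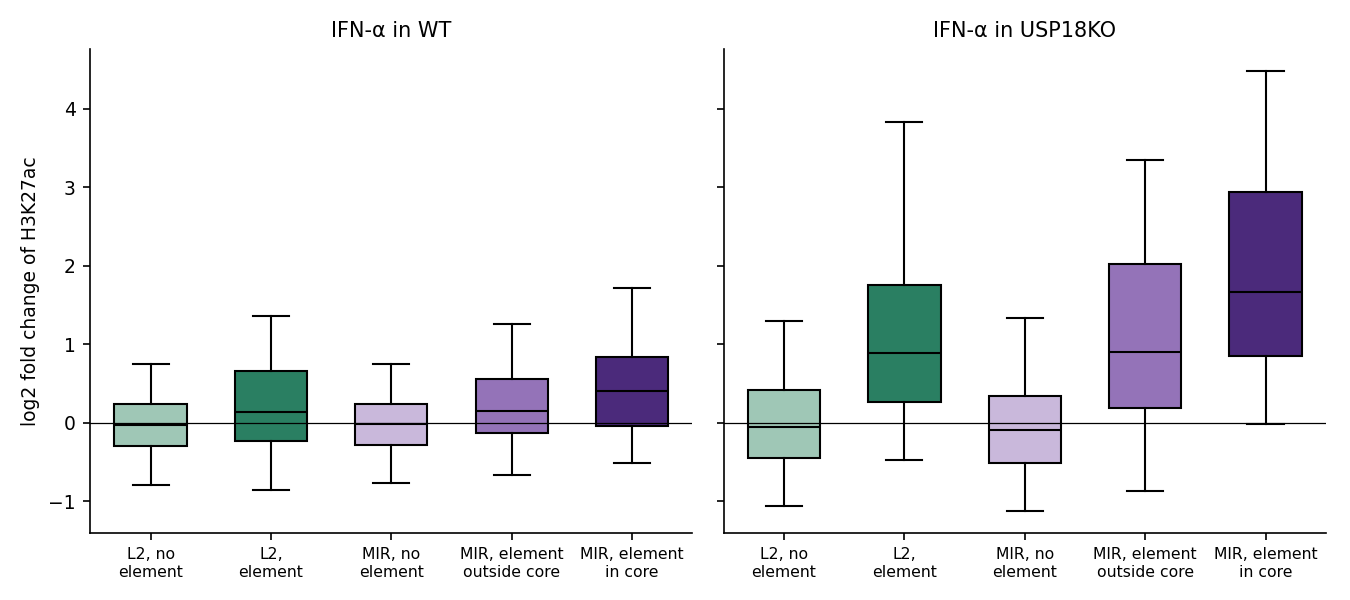
Log2 change of H3K27ac with IFN-α in WT (left) and USP18KO cells (right) for tested L2 and MIR regions, split by whether the middle 201 bases held the element and, for MIR, whether it sat in a core that reached the minimum. Boxes span the quartiles with the median as a line and whiskers the central 90% of regions, and the medians in USP18KO cells are -0.05, 0.89, -0.09, 0.90 and 1.66 from left to right.

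Before any treatment, more of these repeats had less H3K27ac in the clone than had more, as did distal regions as a whole. In untreated USP18KO cells 166 L2 regions (4.37%) and 163 MIR regions (5.23%) were higher than in WT, against 5.69% of all regions tested and 5.18% of distal ones. Lower were 469 L2 regions (12.3%) and 396 MIR regions (12.7%), against 10.8% of all regions and 12.7% of distal ones. The median log2 difference was -0.16 for both classes, -0.14 for distal regions and -0.02 for all regions. A fit of distal regions alone, with its own scaling, brought the medians of both classes to -0.02 and gave 215 L2 regions higher and 339 lower, and 200 MIR regions higher and 295 lower. The called regions were spread over 23 chromosomes and 270 of the 306 stretches of 10 Mb that held any L2 or MIR region. The summed promoter level of the monocytic markers was also higher in the clone, as given above, mainly through SPI1, the gene of PU.1 (64.8 to 74.7 CPM in WT and 98.9 to 131 CPM in USP18KO libraries). CD14 was also higher, at 3.19 to 4.98 CPM in WT and 7.18 to 8.83 CPM in USP18KO libraries. CEBPA held 31.5 to 36.9 CPM in WT, 49.4 and 53.3 CPM in untreated and 36.3 and 37.4 CPM in treated USP18KO cells. LYZ held 11.0 to 12.2 CPM in WT, 14.35 and 12.96 CPM in untreated and 5.69 and 4.6 CPM in treated USP18KO cells. ITGAM, CD33 and CSF1R overlapped between the genotypes. The part of these shifts in the differences was not tested.

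With IFN-α in both genotypes, 393 L2 (10.3%) and 375 MIR regions (12%) were higher in USP18KO cells, against 11.3% of all regions. Lower were 530 L2 (14.0%) and 497 MIR regions (15.9%), against 13.5% of all regions and 15.8% of distal ones. Which direction led depended on the fit. With distal regions filtered, scaled and fitted alone, 459 L2 regions were higher and 393 lower, and 417 MIR regions were higher and 347 lower. With counts scaled by plain sums, 281 L2 regions were higher and 779 lower, and 254 MIR regions were higher and 713 lower.

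The share of the tags in all windows that fell in these repeats was lower in the clone. L2 regions took 2.10%, 2.10%, 2.04% and 2.13% of the tags in untreated and treated WT libraries, and 1.80%, 1.75%, 1.85% and 1.87% in untreated and treated USP18KO libraries. MIR regions took 1.76%, 1.78%, 1.74% and 1.82% in WT and 1.59%, 1.57%, 1.63% and 1.63% in USP18KO libraries. The genotypes did not overlap in either class. The difference was -0.277 percentage points for L2 and -0.171 for MIR (two-sided exact permutation test, n = 4 libraries per genotype, p = 0.0286 for both, the smallest p that this design allows, adjusted p = 0.0571 over 4 tests). Over both genotypes together, the treatment difference was 0.0333 percentage points for L2 and 0.0264 for MIR (exact permutation p = 0.657 and 0.629), in a test whose spread includes the gap between genotypes. Within USP18KO cells both treated libraries lay above both untreated ones in either class, and within WT cells they did not, with 2 libraries per group giving no test that could reach 0.05.

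That lower share went with a higher share at promoters. Promoter windows took 29% to 30.3% of the tags in WT and 34.4% to 35.3% in USP18KO libraries. As a share of the tags in distal windows alone, L2 regions took 3.55%, 3.52%, 3.51% and 3.54% in WT and 3.39%, 3.36%, 3.58% and 3.61% in USP18KO libraries, a difference of -0.0408 percentage points (exact permutation p = 0.486, n = 4 per genotype). For MIR regions it was 2.83%, 2.84%, 2.84% and 2.88% against 2.84%, 2.84%, 2.98% and 2.96%, a difference of 0.0597 in the other direction (exact permutation p = 0.171, n = 4 per genotype). Within the distal windows, the treated USP18KO libraries held the highest shares of both classes.

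**Figure D4:**
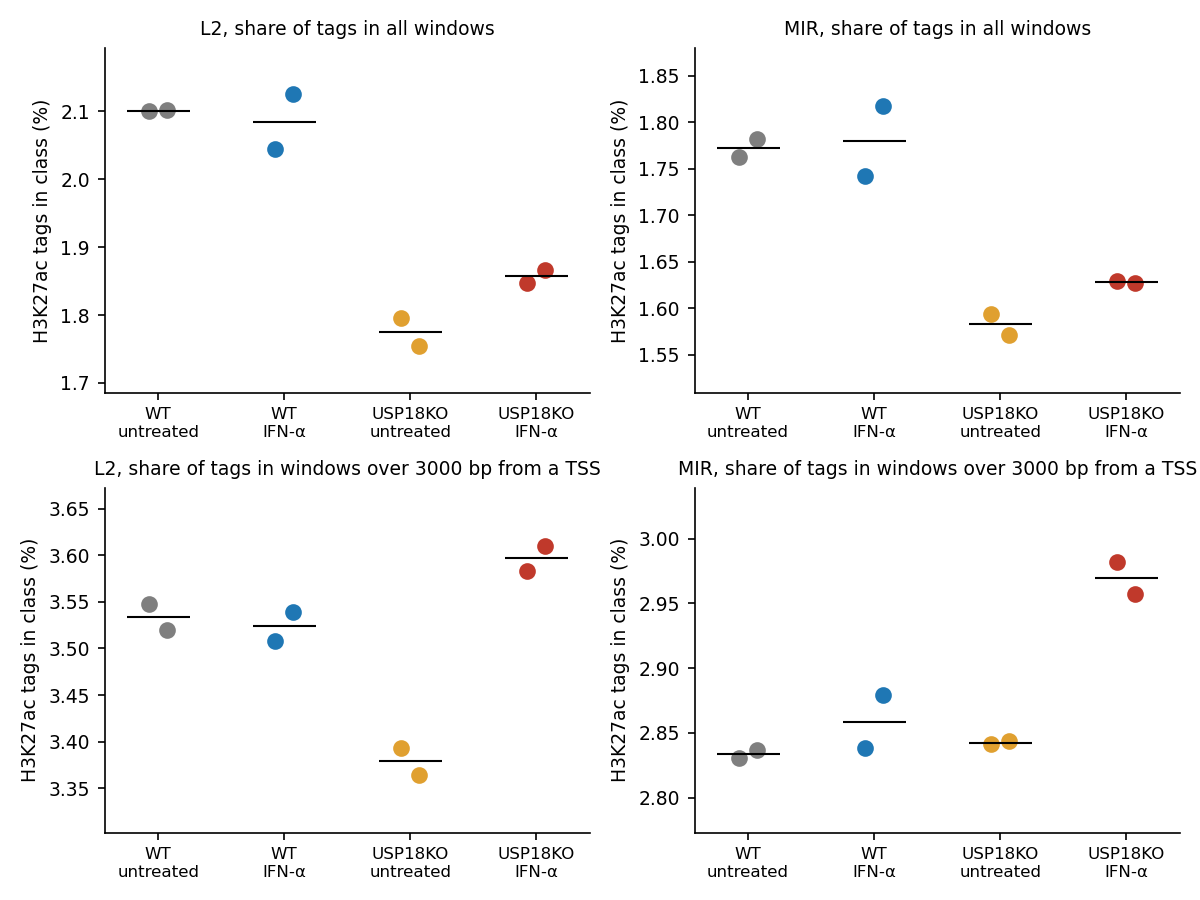
Percent of H3K27ac tags in L2 (left) and MIR regions (right) per library, among tags in all windows (top) and in windows over 3000 bp from a transcription start (bottom), with lines at group means and axes that do not start at 0. Among all windows the WT libraries lie above the USP18KO libraries (2.04% to 2.13% against 1.75% to 1.87% for L2), while among distal windows the genotypes overlap for L2.

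The named regions with the largest differences between untreated genotypes, by the same minimum of 30 counts, were losses in the clone. The L2b copy near PRG2, in an intron of a lncRNA gene, held 30.6, 29.8, 28.8 and 30.5 CPM in the WT libraries and 1.75, 0.967, 1.25 and 1.60 CPM in the USP18KO libraries. The L2c copy between genes near SPEF2 held 50.4, 51.5, 54.1 and 50.4 CPM in WT and 3.50, 2.80, 1.60 and 1.13 CPM in USP18KO libraries. The L2c copy nearest to SPATA6, in an intron of AGBL4, held 55.8, 54.7, 45.2 and 45.2 CPM in WT and 3.85, 3.29, 1.96 and 2.44 CPM in USP18KO libraries. Each lost most of its mark with and without IFN-α. The untreated log2 differences were -4.44 ± 0.21, -4.0 ± 0.16 and -3.94 ± 0.15, with edgeR adjusted p values of 1.36e-30, 2.82e-35 and 9.24e-36. SPEF2 and SPATA6 are known for roles in sperm, and PRG2 encodes the major basic protein of eosinophil granules.

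A few MIR copies lost the mark in the same way. The MIR copy nearest to TBK1, in an intron of RASSF3, held 5.81, 6.46, 3.38 and 5.25 CPM in WT and 0.438, 0.290, 0.534 and 0.376 CPM in USP18KO libraries, with an untreated log2 difference of -4.02 ± 0.40 (edgeR adjusted p = 5.87e-14). TBK1, the nearest start by annotation, encodes a kinase of innate antiviral signalling. The MIR copy near SERINC2 held 10.9, 11.1, 8.35 and 8.44 CPM in WT and 0.875, 1.35, 1.07 and 1.5 CPM in USP18KO libraries. The MIRb copy near PURG followed another course. It held 24.6, 23.1, 22.1 and 24.5 CPM in WT libraries and 2.19 and 2.42 CPM in untreated USP18KO cells, but 22.2 and 20.7 CPM in the treated clone, 0.12 lower than in treated WT cells on the log2 scale. This copy held the element, and its IFN-α effect differed between the genotypes by 3.25 ± 0.24 (edgeR adjusted p = 2.15e-18).

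Gains in the untreated clone were fewer. The L2a copy upstream of CREG1, the gene of a secreted lysosomal glycoprotein, held 4.36, 4.28, 4.77 and 4.94 CPM in WT and 38.9, 39.7, 35.6 and 41.1 CPM in USP18KO libraries, a log2 difference of 3.18 ± 0.16 (edgeR adjusted p = 2.64e-29). The L2 copy near ST8SIA6 held 0.830, 1.00, 0.894 and 1.96 CPM in WT and 7.18, 8.22, 6.14 and 6.67 CPM in USP18KO libraries. The L2a copy near C1QL3 held 1.04, 0.364, 0.596 and 0.412 CPM in WT and 5.51, 4.26, 4.45 and 4.32 CPM in USP18KO libraries. At these 3 copies no IFN-α effect was called in either genotype.

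Gains were also seen at MIR copies. The MIR copy nearest to TOR3A, in an intron of FAM20B, held 1.04, 1.09, 0.795 and 1.03 CPM in WT and 9.10, 5.80, 6.58 and 6.57 CPM in USP18KO libraries. The MIRc copy in EPHB1 held 0.415, 0.455, 0.795 and 0.412 CPM in WT, 3.59 and 3.38 CPM in untreated USP18KO and 1.60 and 1.22 CPM in treated USP18KO libraries. The MIR3 copy in CACNA1E held 0.207, 0.637, 0.795 and 1.75 CPM in WT and 3.33, 3.09, 3.20 and 2.44 CPM in USP18KO libraries. Of these, only the EPHB1 copy fell with IFN-α in the clone, by 1.29 on the log2 scale (edgeR adjusted p = 0.00316).

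**Figure D5:**
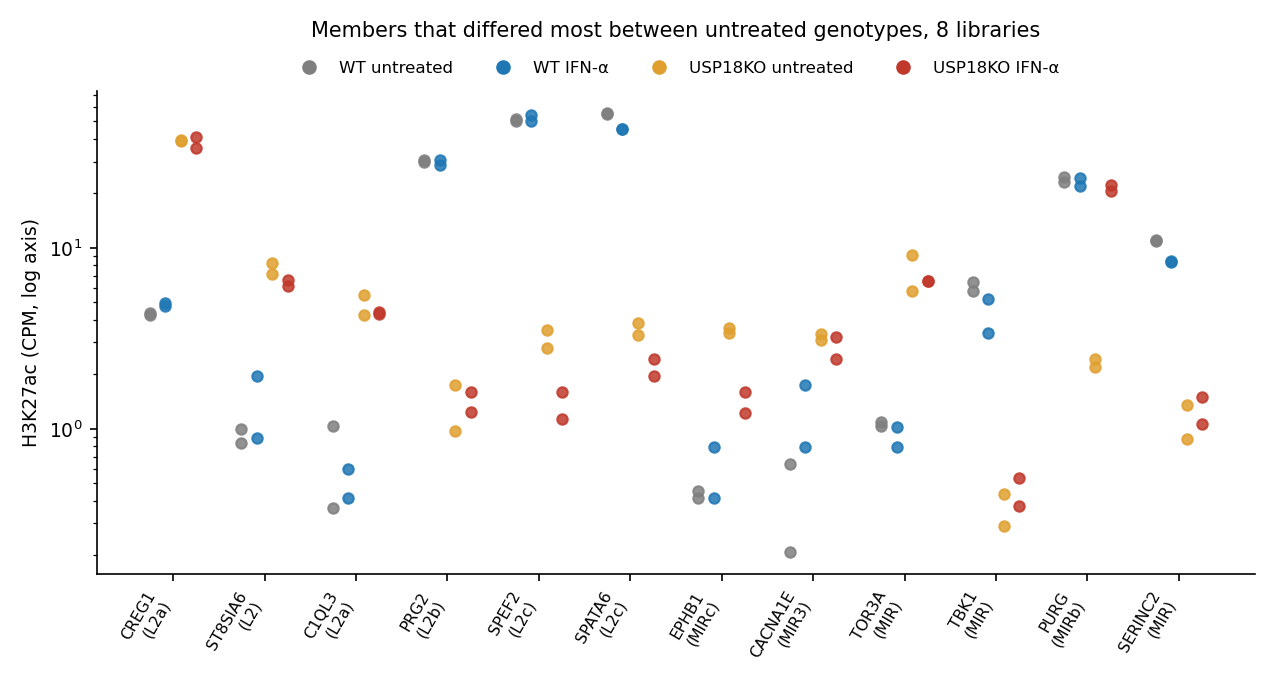
H3K27ac in CPM on a log axis at the 12 L2 and MIR regions with the largest gains and losses between untreated genotypes among those with a mean of at least 30 counts in the higher group, with 1 point per library in the 4 groups. The 6 losses include PURG, where the treated USP18KO libraries (22.2 and 20.7 CPM) came near the WT libraries (22.1 to 24.6 CPM).

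Under IFN-α, the regions highest in the clone relative to WT cells were mostly those with large interferon rises there. Besides NME9, the L2 copy near LOC101928565 held 0.696 and 0.412 CPM in treated WT and 10.6 and 12.2 CPM in treated USP18KO cells. The L2c copy nearest to ENOX1-AS2, in an intron of ENOX1, held 1.39 and 1.24 CPM in treated WT and 19.6 and 23.7 CPM in treated USP18KO cells. The MIRc copy near LINC00189, in an intron of MAP3K7CL, held 1.99 and 0.412 CPM in treated WT and 34.5 and 25.4 CPM in treated USP18KO cells. The latter carried the element within a core that reached the minimum. The MIRc copy in TSC22D1 held 0.497 and 0.823 CPM against 17.4 and 14.7 CPM. The MIRb copy near HS3ST1 had 0 and 2 tags in treated WT cells and 77 in treated USP18KO cells, a ratio of 34.8 with an exact 95% interval for counting error of 9.31 to 292.

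The regions lowest in the treated clone were SPEF2 (-5.24 ± 0.19), PRG2 (-4.38 ± 0.21) and SPATA6 (-4.36 ± 0.17) among L2 copies on the log2 scale. Among MIR copies, the one nearest to LOC101927374, in an intron of ROBO1, held 31.0 and 27.4 CPM in treated WT and 2.05 and 1.5 CPM in treated USP18KO cells. The MIRb copy in SARDH held 6.56 and 6.28 CPM against 0.267 and 0.657 CPM. The MIRLET7I copy, at -4.02 ± 0.26, lay between them.

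Another sequence went with the gains in the untreated clone. TGATGCAA, the composite site of C/EBP and ATF factors, read on both strands, was in 1.74% of L2 and 1.64% of MIR regions. It was in 7.23% of the L2 and 9.20% of the MIR regions higher in untreated USP18KO cells, against 0.640% and 0.758% of those lower and 1.68% and 1.45% of those not called. With it, 12 of 68 L2 (17.6%) and 15 of 55 MIR regions (27.3%) were higher in the clone, against 4.13% and 4.83% without it. The CREG1 copy held this composite. Over all regions, 7.58% of those higher in the clone held it. The plain C/EBP site, TTGCNNAA, was in 19.0% of L2 and 29.5% of MIR regions, against 16.5% of all regions. It was in 24.7% of the L2 and 33.6% of the MIR regions lower in the untreated clone, against 17.9% and 29.5% of those not called. Over all regions the shares were 26.4% and 15.6%, a wider gap than in either class. None of these shares was tested.

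Few L2 or MIR regions lay within 50000 bp of the start of a known interferon-stimulated gene. Of a list of 88 such genes, 17 were nearest to 22 regions, of which 19 were tested. IFN-α raised 1 of them in WT cells, at DDX58, and 6 in USP18KO cells (against 7.12% of all regions), near CD274, IFI27, OAS3, SP110 and, at 2 copies, DDX58. The median log2 change was 0.18 in WT and 0.50 in USP18KO cells, against -0.01 in both for all regions. The L2c copy at DDX58, the gene of the RNA sensor RIG-I, held 1.87, 2.00, 4.97 and 4.53 CPM in untreated and treated WT and 2.80, 2.90, 37.4 and 34.6 CPM in untreated and treated USP18KO libraries. Its window lay 656 bp from the DDX58 start and overlapped another window, so its tags may be those of the promoter.

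The L2a copy 3995 bp upstream of CD274, the gene of the immune checkpoint ligand PD-L1, changed in the clone, and its window overlapped another. It held 1.35, 2.73, 2.88 and 2.78 CPM in WT and 2.10, 1.55, 15.7 and 20.7 CPM in untreated and treated USP18KO libraries, a log2 change of 3.30 ± 0.24 there (edgeR adjusted p = 1.11e-20). The MIR copy in OAS3, a gene of the antiviral oligoadenylate synthetases, held 0.830, 0.546, 0.994 and 0.926 CPM in WT and 0.700, 0.967, 7.92 and 7.14 CPM in USP18KO libraries. One region of the list was lowered in USP18KO cells, an L2c copy near TRIM14, by 1.05 on the log2 scale. In the untreated clone the list had 0 regions higher and 2 lower, at CCR7 and MNDA (against 5.69% and 10.8% of all regions). With IFN-α it had 5 higher and 1 lower (against 11.3% and 13.5% of all regions). The WT call at DDX58 was lost without untreated WT library 1 or 2 or treated WT library 1 (edgeR adjusted p = 0.0993, 0.0808 and 0.0925). That near TRIM14 was lost without treated USP18KO library 2, at -0.91, and that near CCR7 in DESeq2 and without untreated WT or USP18KO library 2, at -0.87 and -1.04. The difference near DDX60L was lost in DESeq2, under plain sums, and without treated WT or USP18KO library 2, at 1.04 and 0.93.

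For inflammatory genes of the NF-kB pathway the numbers were too small to read against the background. Of 14 tested regions near 13 of 42 such genes, IFN-α raised none and lowered 2 in USP18KO cells (against 7.12% and 4.41% of all regions) and moved none past the threshold in WT cells. The MIR3 copy near TNIP1, which encodes a brake on NF-kB signalling, held 58.1, 59.9, 64.0 and 59.4 CPM in WT, 43.6 and 42.0 CPM in untreated USP18KO and 19.2 and 21 CPM in treated USP18KO libraries. Its log2 change was -1.09 ± 0.11 in the clone (edgeR adjusted p = 1.41e-13). The other lowered copy was a MIRb near IL1A. Between untreated genotypes 1 region of this list was lower, near CXCL8, and with IFN-α 1 was higher, near EBI3, and 2 were lower, near TNIP1 and BCL2A1. Of 9 tested regions near AP-1 and immediate early genes, 1 call was made in the 4 comparisons. It was a MIR copy near EGR1, lower in the treated clone (against 13.5% of all regions). The call near IL1A was lost without untreated or treated USP18KO library 2 (edgeR adjusted p = 0.198 and 0.0704). That near EBI3 was lost under plain sums and without any 1 of 4 libraries, both of treated WT and library 1 of untreated and of treated USP18KO cells, with edgeR adjusted p from 0.0515 to 0.373. In the fit of distal regions alone, the differences near BCL2A1 and EGR1 fell to -0.93 and -0.96, and EGR1 was also lost without treated WT or USP18KO library 2, at -0.86 and -0.99.

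Myeloid genes were nearest to 26 regions, of which 25 were tested, with calls in both directions and numbers too small to read against the background. In USP18KO cells IFN-α raised regions near FCGR3A and CSF1R and lowered 2, near RUNX3 and FLT3 (against 7.12% and 4.41% of all regions). None was called in WT cells. The MIR3 copy near FCGR3A, an Fc receptor gene, held 1.45, 1.46, 1.79 and 1.75 CPM in WT, 7.53 and 5.71 CPM in untreated USP18KO and 20.6 and 18.6 CPM in treated USP18KO libraries. FCGR3A has a near-identical neighbour, FCGR3B, so its tags are uncertain. The L2b copy in FLT3, the gene of a cytokine receptor of early blood progenitors, held 19.3, 18.9, 17.7 and 15.2 CPM in WT, 15.2 and 14.0 CPM in untreated USP18KO and 4.98 and 6.95 CPM in treated USP18KO libraries.

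The MIRb copy in CSF1R, the macrophage colony-stimulating factor receptor, held 13.9, 13.7, 17.1 and 19.2 CPM in WT and 5.60, 3.77, 7.83 and 8.64 CPM in USP18KO libraries, lower in the clone by 1.55 ± 0.19 on the log2 scale without IFN-α. A MIRb copy near LYZ was also lower and a MIRc copy near CSF2RB higher in the untreated clone (against 10.8% and 5.69% of all regions). With IFN-α, the FCGR3A copy and a MIRb copy in CSF2RB were higher, and 4 regions of the myeloid list were lower (against 11.3% and 13.5% of all regions). The rise at a MIRc copy in CSF1R was lost without untreated or treated USP18KO library 2 (edgeR adjusted p = 0.0949 and 0.0511), and the difference at the MIRb copy with IFN-α was -0.95 in the fit of distal regions alone. The RUNX3 call was lost without untreated USP18KO library 1 or treated library 2, at -0.62 and -0.92, and the LYZ call without untreated WT or USP18KO library 1, at -0.53 and -0.98. DESeq2 made neither of those calls, and neither held after the median of the surrounding 10 Mb was subtracted. Of 5 regions near genes of other lineages, 1 rose with IFN-α in the clone (against 7.12% of all regions). This was the MIRc copy in an intron of PAX5, a B-cell transcription factor gene. It held 1.45, 0.910, 1.89 and 1.03 CPM in WT, 0.788 and 1.06 CPM in untreated USP18KO and 9.43 and 7.51 CPM in treated USP18KO libraries, and it held GAAACTGAAA.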

How the data were processed

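H3K27ac ChIP-seq was analysed in 8 libraries of THP-1 cells, 4 groups of 2. The deposited table holds expected counts of tags, written in steps of 0.5, that the authors obtained with HOMER in 1000 bp windows around merged ATAC-seq peaks after alignment to hg38 with Bowtie2, whose versions are not given in the sources used here. HOMER's annotation in the same table named the repeat and the nearest gene. Counts were rounded to whole numbers, windows with at least 10 counts in 2 libraries were kept, and edgeR 4.0.16 (R 4.3.3) fitted the quasi-likelihood model over all 8 libraries with TMM scaling, with Benjamini-Hochberg adjustment over all tested windows. DESeq2 1.42.0, other filters, scalings and libraries left out served as alternatives, and the code was tested on simulated data. Sequence came from the hg38 reference, and positions from GENCODE 44. Tag shares were compared by exact permutation tests. The members, lists and rules were chosen with earlier results of these data known. Regions named in the text were the 3 with the largest change in each direction per class and comparison among called regions whose groups did not overlap and whose higher group had a mean of at least 30 counts, and up to 4 called per gene list. The regions near AXL, IFI27 and SP110 were named after their values were seen, and 1 called region of the myeloid list is not reported here. Same-numbered replicates were not treated as pairs, since the labels give only a number. Intervals cover counting error only.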

Additional observations from a re-analysis of the deposited data

Results flagged for a closer look

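The effect of IFN-α differed between the genotypes, by edgeR's test of the interaction term with adjusted p under 0.05 and a difference of more than 2-fold, at 212 L2 and 181 MIR regions towards USP18KO cells and at 92 L2 and 84 MIR regions in the opposite direction. Both numbers are close to the background of 4.61% and 2.55% of all regions. Values are the log2 change in USP18KO minus that in WT cells.

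Among L2 regions raised by IFN-α the difference was 4.64 near LOC105370829, 4.43 near NME9, 3.80 in NUP205, 3.54 in KIAA0319L, 2.85 near CD274, 2.36 at DDX58 and 1.61 in OTOF. Among MIR regions it was 6.40 near LINC02513, 4.41 near NOS2, 4.00 near NNT-AS1, 3.0 near CLMP, 2.86 in PAX5, 2.68 in OAS3, 1.96 in THRA, 1.28 near FCGR3A and 1.00 near LINC01740. The LINC02513 value rests on 2 tags in untreated USP18KO cells. Among regions lowered in USP18KO cells it was -1.95 in XYLT1, -1.57 near GPR26, -1.32 in ST3GAL4 and -1.08 in FLT3 for L2, and -2.14 near MIRLET7I, -2.07 near LOC101927190, -1.54 near MIR4432HG and -1.15 near TNIP1 for MIR.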

How the results depend on the processing

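Of 80 counts of called regions under other settings, 73 stayed within 1.5 times the reported count. With the adjusted p alone and no 2-fold minimum, calls for IFN-α in WT cells went to 36 L2 and 34 MIR regions (16 and 16 as reported), for IFN-α in USP18KO cells to 823 and 797 (471 and 468), and between untreated genotypes to 1044 and 953 (635 and 559), as fewer criteria had to be met. DESeq2 called the difference of IFN-α effects at 192 L2 regions in place of 304, and the cause was not tested. As a share of distal tags, the genotype difference for MIR reversed to 0.0597 percentage points.

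With each library left out in turn, L2 and MIR calls ranged from 11 to 18 and 13 to 19 for IFN-α in WT, from 407 to 473 and 415 to 466 in USP18KO, from 545 to 643 and 495 to 568 between untreated genotypes, from 836 to 939 and 783 to 873 with IFN-α, and from 229 to 290 and 228 to 272 for the difference. The genotype difference in tag share ranged from -0.294 to -0.257 for L2 and from -0.182 to -0.157 for MIR. The IFN-α difference, not past the threshold as reported, ranged from -0.0279 to 0.0880 for L2 and from -0.0116 to 0.0611 for MIR. It reversed without WT IFN-α library 2 (-0.0181 and -0.0116) and without untreated USP18KO library 1 (-0.0142 and -0.00146) or 2 (-0.0279 and -0.00898).

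Deviations of same-numbered libraries correlated at -0.003 to 0.058 across regions, which cannot show whether they were prepared together. The reported fit did not pair them. A fit with the replicate block called 15 and 15, 469 and 474, 639 and 555, 925 and 864, and 302 and 268 regions in the same order and lost no call of a named region. Of 74 named calls, 62 held in every setting and 12 were lost in at least 1, with 0 reversed. Changes under 2-fold passed the adjusted p at well-covered copies, and regions under the count minimum had no test.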
